A study of Mus musculus with 12 samples.

Results

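The genes described here encode the proteasome and the MHC class I molecules, 51 of the 3684 genes with deposited values in splenic CD4 or CD8a cells. They were taken by symbol: genes beginning Psma to Psmg, the class I heavy chain genes H2-D1, H2-K1, H2-M3 and those beginning H2-Q or H2-T, and B2m, Tap1, Tap2, Tapbp and Nlrc5. The last 4 of these, the peptide transporter subunits, the loading bridge tapasin and a class I transactivator, are listed in no table and have no value here. In CD4 cells 50 members were listed and in CD8a cells 41, with 40 in both, 10 in CD4 cells alone and Psmd12 in CD8a cells alone. By role the 51 comprise 7 alpha and 7 beta subunits of the 20S core, 3 immunoproteasome subunits, 6 ATPases and 10 other genes of the 19S cap (symbols Psmc and Psmd), 2 activator subunits, 4 assembly chaperones, 9 class I heavy chain genes and the light chain B2m. Of the cap genes, Psmd9 and Psmd10 encode chaperones that assemble the cap's base and are not subunits of the finished cap. A further 2 match by symbol alone: Psmc3ip, which encodes no proteasome subunit, and Psme3ip1, named for a protein that binds an activator. H2-T-ps is annotated as a pseudogene, and H2-K1, H2-Q4, H2-T24 and Psme1 were listed for CD4 cells and not for CD8a cells.

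The 12 mice formed 4 groups of 3. WT control mice were C57Bl6/J without stress, WT stress mice were C57Bl6/J after repeated social defeat, KO control mice were S100a9-/- on C57Bl6/J without stress, and KO stress mice were S100a9-/- after repeated social defeat. The defeat paradigm lasted 10 days, behaviour was tested for 1 day, and spleens were taken on day 12. Spleens were dissociated, erythrocytes were lysed, and cells were sequenced by a droplet method that counts transcript 3′ ends. The sources used here do not give ages, sex, the deleted exons, whether the knockout is one line, or the number of cells per mouse.

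The proteasome is the barrel-shaped protease that degrades ubiquitin-tagged proteins. Its 20S core has rings of alpha subunits, which gate the entry, and rings of beta subunits, of which PSMB5, PSMB6 and PSMB7 cut. In lymphocytes and after interferon, PSMB8, PSMB9 and PSMB10 replace those cutting subunits and form the immunoproteasome. The 19S cap unfolds substrates with its ATPases, and the PA28 activator, PSME1 with PSME2, opens the core without ubiquitin. Peptides made this way enter the endoplasmic reticulum and are held between a heavy chain and the light chain beta-2 microglobulin, which display them to CD8 T cells. T cells carry class I at high levels themselves.

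Promoter sequences of 4 members are shown because heavy chain, light chain and core proteasome genes are the roles described in most detail. RefSeq windows on GRCm38.p6 were found for 44 of the 51 members, and the 250 bases before the start were searched on both strands. Capitals mark GAAANNGAA (an interferon response type of element), GGGNNTTCC (an NF-kappaB type), TGACNNNGC (the antioxidant type read by NRF factors) and CCAAT (the Y box of class I promoters), or their reverse complements. The B2m window is chr2:122147437-122147685 (plus strand), the H2-K1 window chr17:34000348-34000597 (minus strand), the H2-Q7 window chr17:35438905-35439154 (plus strand) and the Psmb5 window chr14:54618023-54618245 (minus strand), the B2m and Psmb5 windows being cut where an annotated exon begins.
B2m: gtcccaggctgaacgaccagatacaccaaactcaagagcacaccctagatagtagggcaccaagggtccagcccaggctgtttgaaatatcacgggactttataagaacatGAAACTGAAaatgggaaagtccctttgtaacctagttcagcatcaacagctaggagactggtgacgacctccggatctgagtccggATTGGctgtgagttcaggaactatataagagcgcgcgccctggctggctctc
H2-K1: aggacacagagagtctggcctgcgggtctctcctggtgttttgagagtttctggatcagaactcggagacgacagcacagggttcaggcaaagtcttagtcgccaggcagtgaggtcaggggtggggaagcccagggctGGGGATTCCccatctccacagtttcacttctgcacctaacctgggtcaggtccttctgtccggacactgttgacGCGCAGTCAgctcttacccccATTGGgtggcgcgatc
H2-Q7: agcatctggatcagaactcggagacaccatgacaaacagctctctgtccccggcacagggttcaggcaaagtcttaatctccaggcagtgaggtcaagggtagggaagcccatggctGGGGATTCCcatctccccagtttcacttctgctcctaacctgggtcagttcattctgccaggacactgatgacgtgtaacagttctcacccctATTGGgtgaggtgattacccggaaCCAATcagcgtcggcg
Psmb5: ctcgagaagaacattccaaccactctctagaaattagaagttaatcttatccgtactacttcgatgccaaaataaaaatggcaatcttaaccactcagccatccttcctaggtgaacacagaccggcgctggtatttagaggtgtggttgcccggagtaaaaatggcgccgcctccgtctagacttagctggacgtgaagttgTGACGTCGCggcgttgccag

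CCAAT lay in the windows of 9 of 9 matched class I members and 12 of 33 proteasome members, against 33.8% of all 32851 windows. GGGNNTTCC lay in 4 class I windows, H2-D1, H2-K1, H2-Q4 and H2-Q7, and in 1 of 33 proteasome windows, that of Psmd11, against 4.98% of all windows. The printed B2m window holds gggaaagtccc, a similar order of letters that GGGNNTTCC does not match on either strand. A window without GGGNNTTCC, such as that of B2m, is thus not shown to lack an NF-kappaB type of element. GAAANNGAA lay in the windows of B2m, H2-T22 and H2-T23 among class I members and of Psmb3, Psmd4 and Psmd9 among proteasome members, against 7.13% of all windows. The printed H2-K1 and H2-Q7 windows hold tttcacttc, a similar order of letters that GAAANNGAA does not match on either strand. A window without GAAANNGAA is thus not shown to lack an interferon response type of element. TGACNNNGC lay in 5 of 33 proteasome windows, those of Psmb5, Psmb6, Psmc6, Psmd12 and Psmd9, and in the class I windows of H2-K1 and H2-T22, against 10.2% of all windows. A match describes letters and is no evidence of binding.

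Values are the average expression of a gene over the cells of 1 type in 1 mouse, on a linear scale near 10000 per cell. Differences are log2 of the value plus 0.1, given with the standard error. A gene was called at a limma p below 0.05 after Benjamini-Hochberg adjustment over all 2999 genes of CD4 cells or 2851 of CD8a cells. The authors listed these genes for comparisons of these same groups, so they may have been chosen for differing there. Adjusted p values and shares of all genes thus hold among the listed genes and not over the genome. The sum of the listed genes lay between 7367 and 7615 in control mice and between 8102 and 8270 in stressed mice across both cell types. Cd4 was at 1.66 to 3.01 in CD4 cells of every mouse and was not listed for CD8a cells, where Cd8a was at 3.38 to 5.27. Both were called lower with stress. Cd4 differed by -0.64 ± 0.10 in WT and -0.35 ± 0.10 in KO CD4 cells, and Cd8a by -0.24 ± 0.08 in WT and -0.40 ± 0.08 in KO CD8a cells. In CD4 cells Cd8a was at 0.0526 to 0.269. S100a9, the deleted gene, was low in these T cells: in CD4 cells it was 0.0045 to 0.0167 in WT control, 0.0595 to 0.111 in WT stress, 0.0418 to 0.0493 in KO control and 0.0228 to 0.0294 in KO stress mice. The libraries labelled KO control were thus above those labelled WT control, so S100a9 does not check the genotype labels, and WT and KO are used here as labelled. B cell markers (2 of 7 listed in CD4 cells, 4 of 7 in CD8a cells) summed to 1.21 to 3.81 in CD4 and 4.93 to 8.6 in CD8a cells of control mice, and to 1.35 to 2.5 and 3.39 to 4.99 in stressed mice. Natural killer and cytotoxic markers (3 of 6 listed in CD4 cells, 2 of 6 in CD8a cells) summed to 0.53 to 1.97 and 4.74 to 6.68 in control mice and to 1.67 to 5.57 and 6.34 to 8.4 in stressed mice. The part of these other cells in the results below was not tested, and an average over cells cannot tell a change in every cell from a change in the mix of cells.

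In CD4 cells of WT mice, stress was accompanied by higher values of 22 of 50 members and lower values of 2, against 22.9% of all genes called higher and 27.7% called lower. The median member difference was 0.23, against 0.09 over all genes. Of the 20S core 14 of 17 subunits rose (5 of 7 alpha, 6 of 7 beta and 3 of 3 immunoproteasome), with a median of 0.41. Of the 19S cap genes 3 of 15 rose and 1 fell, with a median of 0.22, and 3 of 13 rose and 1 fell with Psmd9 and Psmd10 left out. Among class I genes 5 of 10 rose and 1 fell. By limma 0 of 2 activator subunits and 0 of 4 assembly chaperones were called, and 0 of either had an unadjusted p below 0.05.

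In CD8a cells of WT mice 17 of 41 members rose and 1 fell, against 18.8% and 35.5% of all genes, and the median member difference was 0.16 against 0.02. Of the 20S core, 9 of 17 subunits rose, including 3 of 3 immunoproteasome subunits. Of the 19S cap genes, 6 of 13 rose (5 of 12 without the chaperone gene Psmd10), and of class I genes 2 of 7 rose and 1 fell. In KO mice fewer members were called: 12 of 50 rose and 1 fell in CD4 cells, against 12.7% and 29% of all genes, and 9 of 41 rose and 1 fell in CD8a cells, against 13.2% and 34.4%. The median member difference was 0.14 in KO CD4 cells (-0.00 over all genes) and 0.17 in KO CD8a cells (0.01 over all genes). By role, 8 of 17 core subunits rose in KO CD4 and 7 of 17 in KO CD8a cells, 2 of 15 and 1 of 13 cap genes rose, and 0 of 10 and 1 of 7 class I genes rose while 1 in each fell. The class I gene called higher in KO CD8a cells, named after its values were seen, is the pseudogene H2-T-ps, at 0.0137 to 0.023 in control and 0.0341 to 0.0536 in stressed mice (limma adjusted p = 0.017), a call lost without KO control mouse 1 or 2 or KO stress mouse 3 (adjusted p up to 0.063). These counts do not test a difference between genotypes, which is tested member by member further on.

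**Figure D1:**
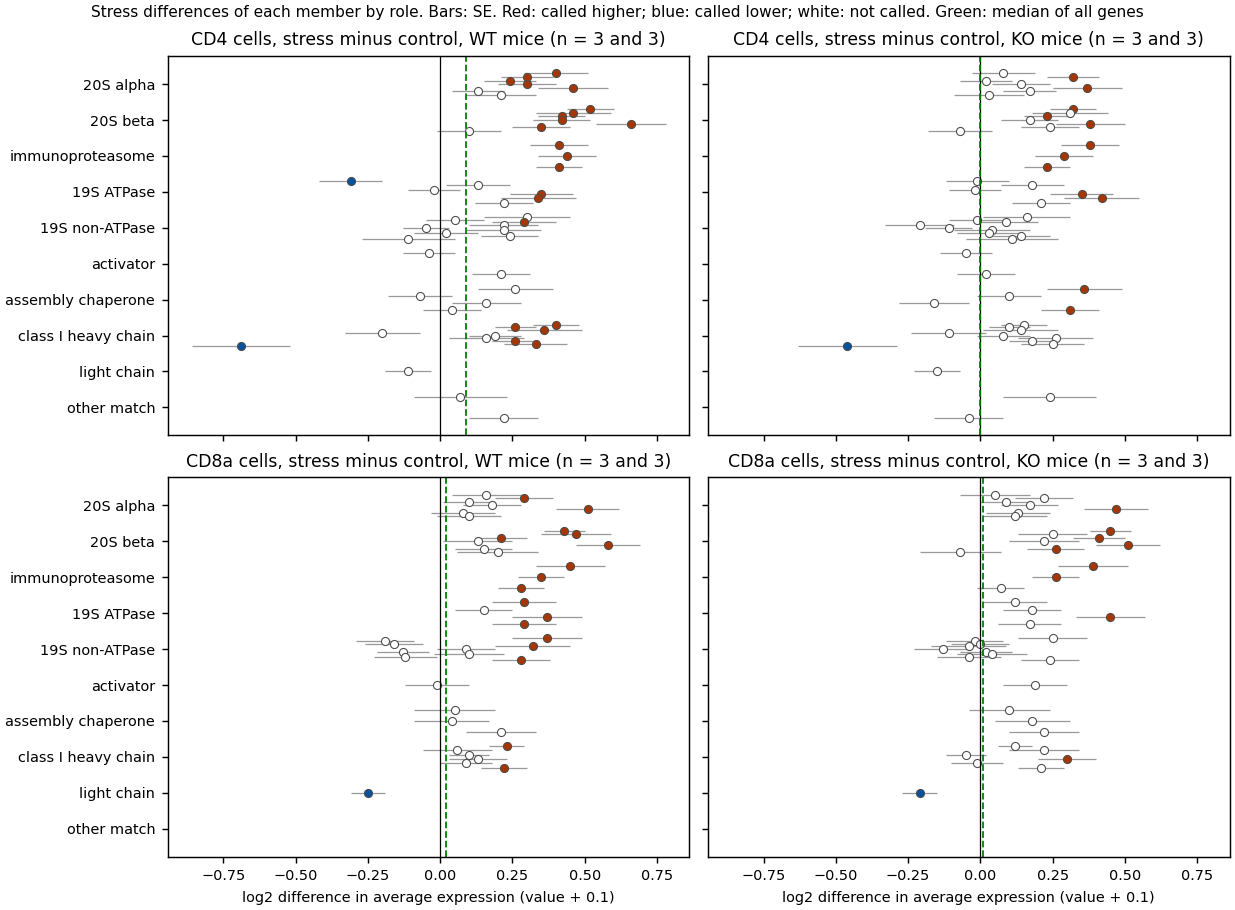
Each point is 1 member, placed by its stress minus control difference on the log2 scale with its standard error, in rows by role, for CD4 and CD8a cells of WT and KO mice (3 against 3 mice). The green line is the median of all genes. In WT CD4 cells 14 of 17 core subunits are called higher against 3 of 15 cap genes, and the light chain lies to the left of 0 in each panel.

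Most members have short transcripts, so the all-gene shares are also given by length. The median annotated transcript length of the 51 members was 1438 bases. Of the other protein-coding genes of up to 2000 bases, ribosomal and mitochondrial genes left out, 34.2% rose and 1.49% fell in WT CD4 cells (median 0.23), against 7.45% and 49% of longer genes (median -0.24). Of the 42 members of that length, 45.2% rose and 2.38% fell, with a median of 0.25. In WT CD8a cells 27.4% of short genes rose against 38.9% of 36 short members, while their medians were 0.17 and 0.15. In KO mice the shares were 14.6% against 26.2% in CD4 cells (medians 0.11 and 0.15) and 17.2% against 25% in CD8a cells (0.13 and 0.18).

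Scaling mattered for counts in both directions. Centring each mouse on its median gene raised the median of all genes from -0.00 to 0.14 in KO CD4 cells, from 0.02 to 0.22 in WT CD8a cells and from 0.01 to 0.19 in KO CD8a cells. On that scale 32 members rose in WT CD4, 26 in KO CD4, 32 in WT CD8a and 28 in KO CD8a cells. All genes then split into 982 higher and 805 lower in WT CD4 cells (688 and 832 without centring), 893 and 773 in KO CD4 cells (382 and 871), 1262 and 927 in WT CD8a cells (537 and 1011), and 1091 and 875 in KO CD8a cells (376 and 981). The members' median stood 0.14 to 0.16 above that of all genes in the 4 comparisons, a gap that centring cannot move. Centring brought 58 member differences past the threshold that had not passed it, among them H2-D1, H2-K1 and Psmb6 in KO CD4 cells, H2-D1 and Psmb9 in KO CD8a cells, Psmb6 and Psmb7 in WT CD8a cells, Psmb2 in KO cells of both types, and Psme2 in WT CD4 and KO CD8a cells.

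Of the cutting subunits, Psmb5, the chymotrypsin-like protease of the standard core, had the largest rise of any member in WT CD4 cells. Its values were 0.8, 0.726 and 0.625 in WT control and 1.23, 1.07 and 1.26 in WT stress mice, and 0.948, 0.822 and 0.733 in KO control and 1.27, 1.03 and 1.04 in KO stress mice. Stressed mice were above control mice without overlap in each genotype. Groups did not overlap in 58.8% of all genes in WT and 49% in KO CD4 cells, and in 61.1% and 53.9% in CD8a cells. The members' shares were 62% and 28% in CD4 and 46.3% and 34.1% in CD8a cells. They were near that of all genes in WT CD4 cells and below it in the other comparisons, so separation of groups is no trait of the members. Psmb1, Psmb2, Psma5, Psmc1, Psmc5 and H2-T24 were named by a rule that asked for no overlap in at least 1 comparison, so that for them it is a description. The rise was 0.66 ± 0.12 in WT (limma adjusted p = 0.00018) and 0.38 ± 0.12 in KO mice (adjusted p = 0.014). Without KO control mouse 3 or KO stress mouse 1 the KO call was lost, with an adjusted p of up to 0.079.

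In CD8a cells Psmb5 was 0.71, 0.672 and 0.761 in WT control against 1.28, 1.04 and 1.05 in WT stress mice. In KO mice it was 0.903, 0.65 and 0.722 without and 1.18, 1.17 and 1.01 with stress. The groups again did not overlap. The rise was 0.58 ± 0.11 in WT (limma adjusted p = 0.00019) and 0.51 ± 0.11 in KO mice (adjusted p = 0.0007), and it was called under each alternative run.

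Psmb6 and Psmb7, the other standard cutting subunits, moved less. Psmb6 in CD4 cells was 1.13, 1.04 and 1.04 in WT control and 1.47, 1.3 and 1.4 in WT stress mice, a rise of 0.35 ± 0.10 (limma adjusted p = 0.01). In KO CD4 cells its difference of 0.24 ± 0.10 missed the threshold (adjusted p = 0.071) and passed it without KO control mouse 1 (0.35) or KO stress mouse 3 and with array quality weights. In CD8a cells Psmb6 rose in KO mice (0.26 ± 0.10, limma adjusted p = 0.031), a call lost without KO control mouse 3, KO stress mouse 1 or KO stress mouse 3 (adjusted p up to 0.18), and it was 0.15 ± 0.10 in WT mice (adjusted p = 0.2). Psmb7 was called in none of the 4 comparisons on the deposited scale, with differences of 0.10 ± 0.11 and -0.07 ± 0.11 in CD4 and 0.20 ± 0.14 and -0.07 ± 0.14 in CD8a cells of WT and KO mice.

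Among non-cutting beta subunits, Psmb1 rose in each of the 4 comparisons and under each alternative run. Its CD4 values were 2.77, 2.63 and 2.27 in WT control and 3.84, 3.48 and 3.82 in WT stress mice, and 3, 2.68 and 2.65 in KO control and 3.39, 3.5 and 3.55 in KO stress mice. No stressed mouse overlapped the controls of its genotype. The rise was 0.52 ± 0.08 in WT (limma adjusted p = 5.2e-05) and 0.32 ± 0.08 in KO CD4 cells (adjusted p = 0.0039). In CD8a cells it was 0.43 ± 0.07 (adjusted p = 4.1e-05) and 0.45 ± 0.07 (adjusted p = 3.3e-05).

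Psmb2 rose in WT mice, by 0.46 ± 0.13 in CD4 (limma adjusted p = 0.0089) and 0.47 ± 0.12 in CD8a cells (adjusted p = 0.0022). In KO mice its differences of 0.31 ± 0.13 and 0.25 ± 0.12 missed the threshold (adjusted p = 0.078 and 0.1), and without KO control mouse 1 they were 0.43 and 0.33 and passed, the latter also with array quality weights. Psma5, an alpha subunit of the gate ring, rose in all 4 comparisons, by 0.46 ± 0.12 and 0.37 ± 0.12 in WT and KO CD4 cells and by 0.51 ± 0.11 and 0.47 ± 0.11 in WT and KO CD8a cells. Its CD8a values were 0.587, 0.505 and 0.482 in WT control and 0.9, 0.724 and 0.744 in WT stress mice, with no overlap. The KO CD4 call (limma adjusted p = 0.019) was lost without KO control mouse 3 or KO stress mouse 1 or when 2 groups alone were fitted (adjusted p up to 0.12).

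The 3 immunoproteasome genes rose together in WT mice. Psmb8, which replaces PSMB5, was 4.94, 4.7 and 4.2 in CD4 cells of WT control and 6.86, 5.71 and 6.28 in those of WT stress mice. In KO CD4 cells it was 6.27, 5.06 and 4.84 without and 6.86, 6.09 and 6.72 with stress, where KO control mouse 1 overlapped the stressed mice. The rise was 0.44 ± 0.10 in WT (limma adjusted p = 0.0013) and 0.29 ± 0.10 in KO mice (adjusted p = 0.026). In CD8a cells Psmb8 rose by 0.35 ± 0.08 in WT (adjusted p = 0.00079) and 0.26 ± 0.08 in KO mice (adjusted p = 0.0093). The KO CD4 call was lost without KO control mouse 2, KO control mouse 3, KO stress mouse 1 or KO stress mouse 3 and with no variance trend, and the KO CD8a call without KO control mouse 3 (adjusted p up to 0.12 and 0.077).

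Psmb9, which replaces PSMB6, was 1.83, 1.71 and 1.74 in CD4 cells of WT control and 2.4, 2.16 and 2.57 in those of WT stress mice. In KO mice it was 2.36, 2 and 2.01 without and 2.46, 2.58 and 2.46 with stress. KO control mice thus lay above WT control mice, and stressed mice of both genotypes overlapped. The rise was 0.41 ± 0.08 in WT (limma adjusted p = 0.00054) and 0.23 ± 0.08 in KO CD4 cells (adjusted p = 0.033), the latter lost without any 1 of KO control mice 2 and 3 and KO stress mice 1, 2 and 3, with no variance trend and with 2 groups alone (adjusted p up to 0.13). In CD8a cells it was 0.28 ± 0.08 in WT (adjusted p = 0.0064) and 0.07 ± 0.08 in KO mice (adjusted p = 0.5).

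Psmb10, which replaces PSMB7, was 1.27, 1.26 and 1.23 in CD4 cells of WT control and 1.64, 1.58 and 1.87 in those of WT stress mice. In KO CD4 cells it was 1.57, 1.25 and 1.36 without and 1.78, 1.67 and 2.1 with stress, again with no overlap. It rose by 0.41 ± 0.10 in WT (limma adjusted p = 0.0029) and 0.38 ± 0.10 in KO CD4 cells (adjusted p = 0.0048), and by 0.45 ± 0.12 (adjusted p = 0.0037) and 0.39 ± 0.12 (adjusted p = 0.012) in CD8a cells. Without KO control mouse 2 or KO control mouse 3 the KO CD8a call was lost (adjusted p up to 0.09).

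**Figure D2:**
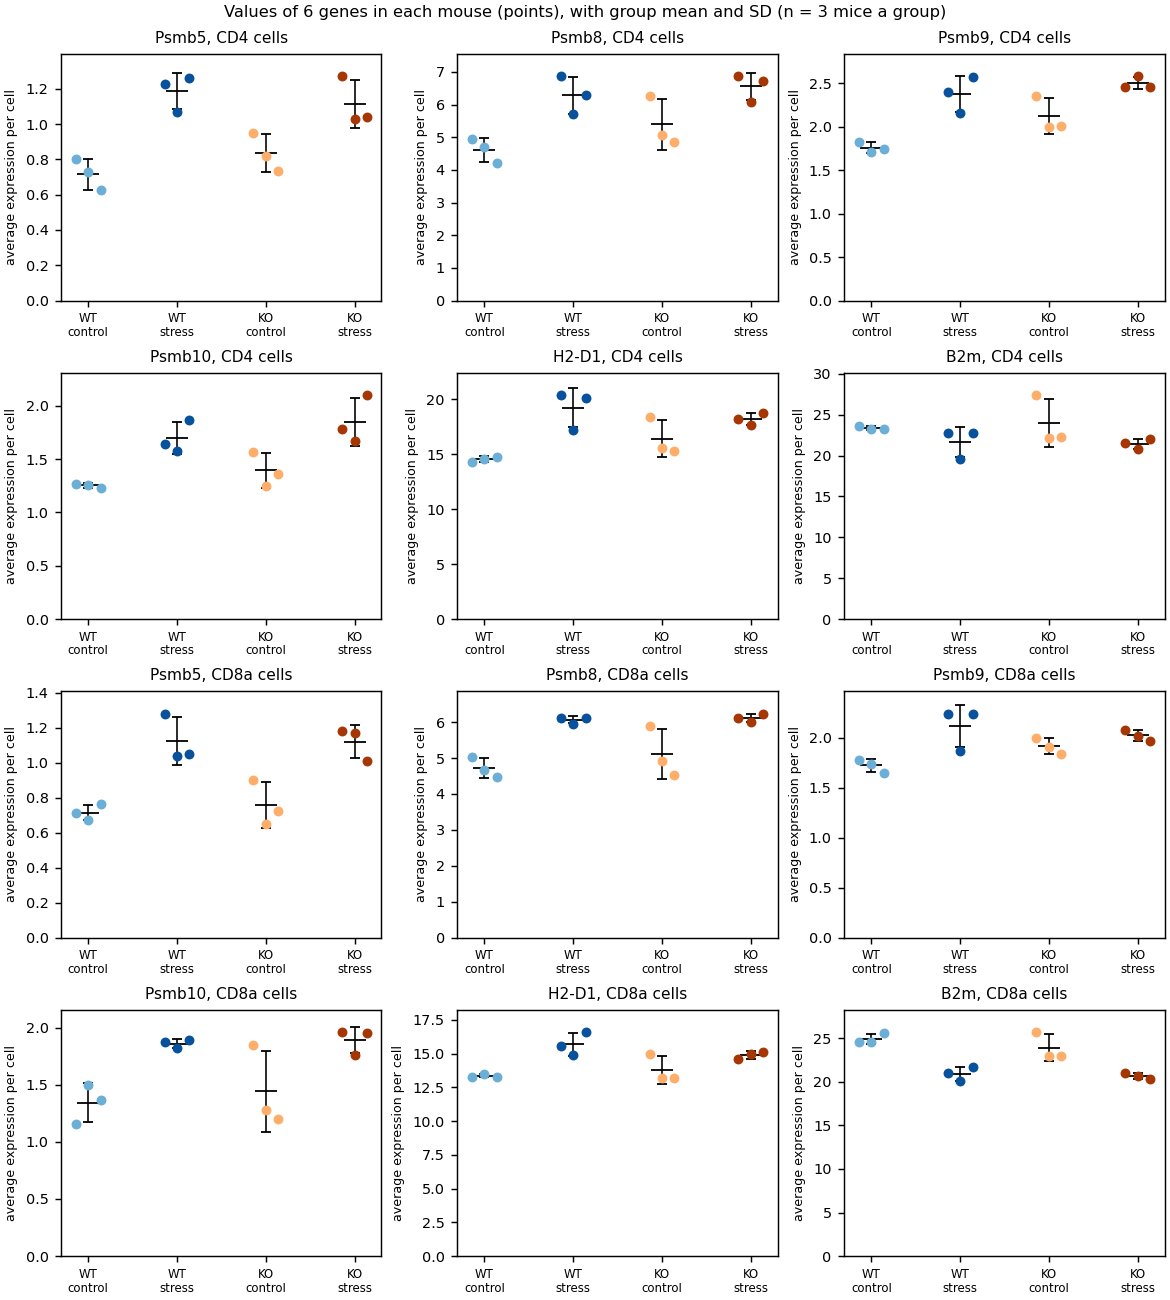
Average expression per cell of 6 genes in each mouse (points), with the mean and SD of 3 mice a group, for CD4 cells (upper 6 panels) and CD8a cells (lower 6 panels). Psmb5 in WT CD4 cells goes from 0.625 to 0.8 in control to 1.07 to 1.26 in stressed mice, and B2m in CD8a cells lies lower in stressed mice than in controls of each genotype.

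The exchange of standard for induced cutting subunits can be followed as a ratio within a mouse, which a change of scale does not touch. These ratios were chosen after the values were seen and are given without a test, as changes and not as levels. The log2 ratio of Psmb8 to Psmb5 went from 2.69 ± 0.06 (SD, n = 3) in WT control to 2.40 ± 0.08 in WT stress CD4 cells, and from 2.69 ± 0.06 to 2.56 ± 0.13 in KO mice. In CD8a cells it went from 2.73 ± 0.15 to 2.44 ± 0.16 in WT and from 2.76 ± 0.14 to 2.45 ± 0.15 in KO mice. Psmb5 thus gained on Psmb8 on average, though KO CD4 groups overlapped. Psmb10 to Psmb7 went the other way in CD4 cells, from 0.98 ± 0.08 to 1.30 ± 0.16 in WT and from 1.08 ± 0.08 to 1.57 ± 0.33 in KO CD4 cells. Psmb9 to Psmb6 was 0.72 ± 0.03 in WT control and 0.77 ± 0.09 in WT stress CD4 cells and 0.93 ± 0.06 and 0.90 ± 0.14 in KO CD4 cells, with overlap. In CD8a cells Psmb9 to Psmb6 was 0.82 ± 0.12 and 0.95 ± 0.17 in WT mice, with overlap. In KO CD8a cells it went from 1.11 ± 0.10 down to 0.90 ± 0.09. Psmb10 to Psmb7 in CD8a cells was 1.33 ± 0.51 and 1.57 ± 0.20 in WT mice, with overlap, and went from 1.39 ± 0.27 to 1.89 ± 0.08 in KO mice.

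Summed over a role, the 14 standard core subunits in CD4 cells were 18.8, 16.8 and 16.1 in WT control and 23.3, 21.1 and 23.1 in WT stress mice. In KO CD4 cells the sum was 21, 18.7 and 17.2 without and 21.8 in each mouse with stress. The 3 immunoproteasome genes summed to 8.03, 7.67 and 7.17 in WT control and 10.9, 9.45 and 10.7 in WT stress mice. The 15 cap genes went from 9.59 to 10.2 in WT control to 10.6 to 11.2 in WT stress mice, a smaller step that still did not overlap. In KO mice the cap sums overlapped, at 9.76 to 11.5 against 10.9 to 11.9 in CD4 and 7.9 to 8.79 against 8.63 to 9.38 in CD8a cells. In CD8a cells the standard core summed to 15.5 to 18.1 in WT control and 19.4 to 21.3 in WT stress mice, and to 15.3 to 18.2 and 18.9 to 20.7 in KO mice. These sums are dominated by the genes with the most transcripts and carry no test.

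**Figure D3:**
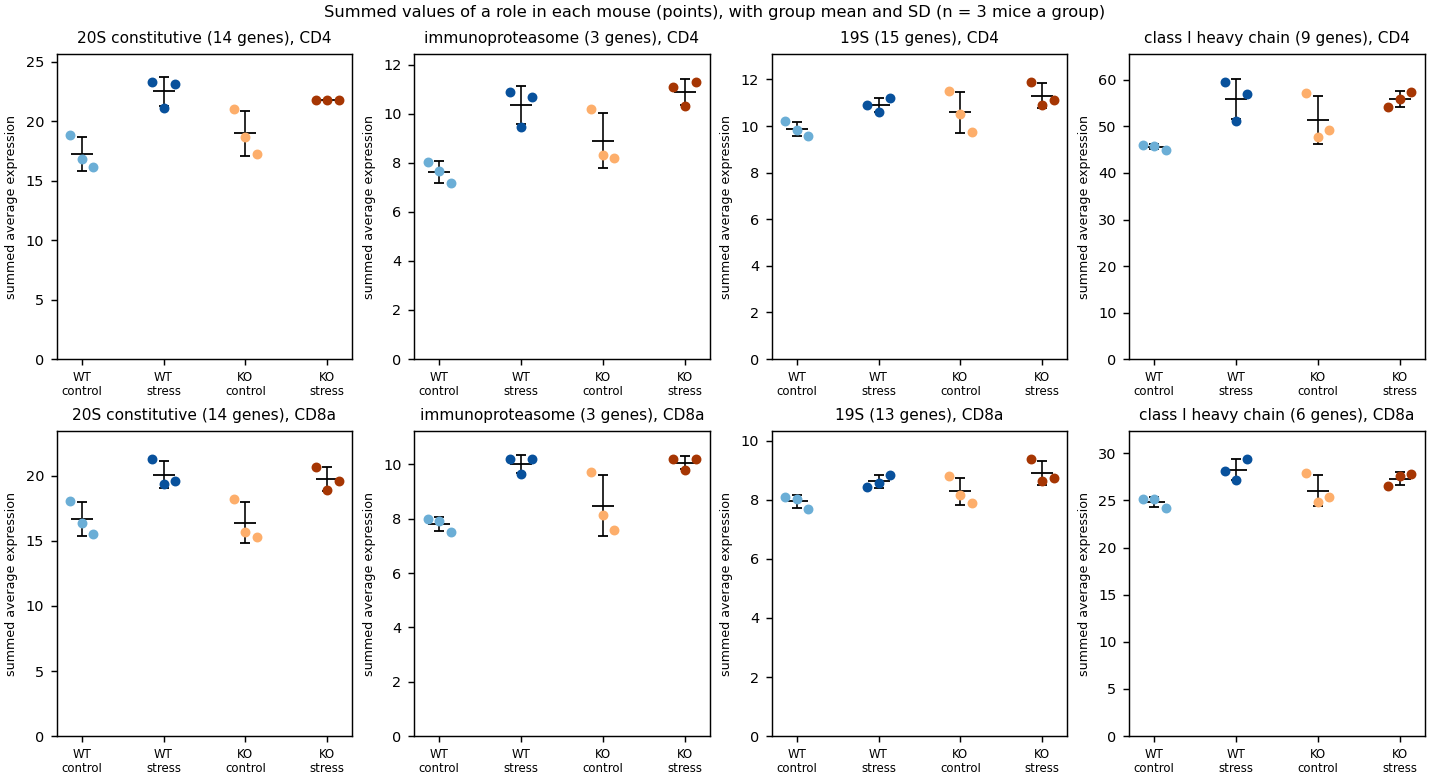
Summed average expression of 4 roles in each mouse (points), with the mean and SD of 3 mice a group, in CD4 cells (upper row) and CD8a cells (lower row). The immunoproteasome sum in CD8a cells is 7.51 to 7.98 in WT control and 9.63 to 10.2 in WT stress mice, while KO control mouse 1 reaches 9.73.

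In the 19S cap, the ATPase gene Psmc5 rose in all 4 comparisons, by 0.34 ± 0.13 and 0.42 ± 0.13 in WT and KO CD4 cells and by 0.37 ± 0.12 and 0.45 ± 0.12 in WT and KO CD8a cells. Its KO CD4 values were 0.792, 0.684 and 0.554 in control and 0.979, 0.979 and 0.839 in stressed mice, with no overlap. The WT CD4 call (limma adjusted p = 0.036) was lost without WT control mouse 1 or 3 or any 1 of the 3 WT stress mice (adjusted p up to 0.18), the KO CD4 call without KO control mouse 3 (0.079) and the WT CD8a call without WT stress mouse 1 (0.059). Psmc1, another ATPase, fell in WT CD4 cells, from 0.43, 0.468 and 0.404 to 0.362, 0.337 and 0.299, by -0.31 ± 0.11 (limma adjusted p = 0.034). That fall missed the threshold under median centring and without WT control mouse 1 or 2 or WT stress mouse 2 or 3 (adjusted p up to 0.13), and Psmc1 was at -0.01 ± 0.11 in KO CD4 cells. Of the non-ATPase cap genes 1 of 9 rose in WT CD4 and 3 of 9 in WT CD8a cells (Psmd10 among them). In KO cells of either type 0 of 9 rose by limma, and 0 and 1 had an unadjusted p below 0.05. Of all genes 22.9% rose in WT CD4, 18.8% in WT CD8a, 12.7% in KO CD4 and 13.2% in KO CD8a cells. With so few genes these counts are not set apart from those shares.

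Altogether 7 members rose in each of the 4 comparisons: Psma5, Psmb1, Psmb3, Psmb5, Psmb8, Psmb10 and Psmc5, of which Psmb3 is named after its values were seen. Its WT CD8a call (limma adjusted p = 0.049) was lost under 9 of 22 alternatives, 7 of them leaving out WT control mouse 1 or 2, WT stress mouse 1, KO stress mouse 2 or any 1 KO control mouse (adjusted p up to 0.23). Its KO CD4 call was lost without KO control mouse 3 or KO stress mouse 3. They are 6 core subunits and 1 cap ATPase, and 29 members rose in at least 1 comparison. The calls shared by WT and KO mice were 10 of 22 WT and 10 of 12 KO calls in CD4 cells, and 7 of 17 and 7 of 9 in CD8a cells. In 19 members no stress comparison passed. Over all genes 10.2% of those tested in both cell types rose in each of the 4 (17.5% of the 40 such members), 25.2% rose in at least 1 (56.9% of members) and 38.5% passed in none (37.3% of members). Of all KO calls higher, 80.1% were also WT calls in CD4 and 76.1% in CD8a cells, close to the members' 83.3% and 77.8%. Of all WT calls higher, 44.5% were also KO calls in CD4 and 53.3% in CD8a cells, against the members' 45.5% and 41.2%.

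The PA28 activator genes were not called. Psme1 in CD4 cells was 3.84, 3.72 and 4.09 in WT control and 4.15, 3.59 and 3.62 in WT stress mice (-0.04 ± 0.09, limma adjusted p = 0.74). It was -0.05 ± 0.09 in KO mice (adjusted p = 0.7). Psme2 was at 0.21 ± 0.10 and 0.02 ± 0.10 in WT and KO CD4 cells and at -0.01 ± 0.11 and 0.19 ± 0.11 in CD8a cells (adjusted p = 0.11, 0.89, 0.96 and 0.18). It passed in WT CD4 cells when 2 groups alone were fitted and in KO CD8a cells without KO control mouse 1.

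Class I genes did not all change in one direction. H2-D1, a classical heavy chain, was 14.3, 14.6 and 14.8 in CD4 cells of WT control and 20.4, 17.2 and 20.1 in those of WT stress mice, with no overlap. It rose by 0.40 ± 0.08 (limma adjusted p = 0.00041) and was called under each alternative run. In CD8a cells it was 13.3, 13.5 and 13.3 in WT control and 15.6, 14.9 and 16.6 in WT stress mice, a rise of 0.23 ± 0.06 (adjusted p = 0.004).

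In KO mice H2-D1 was 18.4, 15.6 and 15.3 in control and 18.2, 17.7 and 18.8 in stressed CD4 cells, where KO control mouse 1 overlapped the stressed mice. The difference was 0.15 ± 0.08 (limma adjusted p = 0.13) in CD4 and 0.12 ± 0.06 (adjusted p = 0.14) in CD8a cells. Without KO control mouse 1 it was 0.24 and 0.18 and passed in both, and in CD4 cells also with array quality weights.

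H2-K1, the other classical heavy chain of this strain, was listed for CD4 cells, at 20.5, 20.2 and 18.8 in WT control and 25.2, 21.8 and 24.1 in WT stress mice. It rose by 0.26 ± 0.07 (limma adjusted p = 0.0069). In KO mice it was 25, 21.2 and 21.5 without and 23.6, 24.2 and 24.7 with stress (0.10 ± 0.07, adjusted p = 0.28), and 0.18 without KO control mouse 1, which passed. The nonclassical H2-M3, H2-T22 and H2-T23 rose in WT CD4 cells by 0.36 ± 0.13, 0.26 ± 0.08 and 0.33 ± 0.11. H2-T23 also rose in WT CD8a cells by 0.22 ± 0.08 (limma adjusted p between 0.018 and 0.034 over these calls). These 3 genes are named after their values were seen, and each call depended on single WT mice (adjusted p up to 0.14). The H2-M3 call was lost without WT control mouse 3 or WT stress mouse 1 or 2, and the H2-T22 call without WT control mouse 1 or WT stress mouse 2. The H2-T23 calls were lost without WT control mouse 1 or 2 or WT stress mouse 1, and in CD8a cells also without WT stress mouse 2 or with no variance trend. Class I genes are near-identical in parts, and the sources used here do not say how reads shared between them were counted.

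H2-T24, a nonclassical gene at low level, fell. Its CD4 values were 0.162, 0.225 and 0.152 in WT control and 0.0724, 0.0798 and 0.0629 in WT stress mice, with no overlap, a difference of -0.69 ± 0.17 (limma adjusted p = 0.0023). In KO mice it was 0.281, 0.195 and 0.153 without and 0.166, 0.0839 and 0.124 with stress, with overlap, at -0.46 ± 0.17 (adjusted p = 0.035). The KO call was lost under median centring, with 2 groups alone and without KO control mouse 1 or 2 or KO stress mouse 2 or 3 (adjusted p up to 0.17).

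B2m, the light chain that all these heavy chains need, did not rise with them. In CD8a cells it was 24.6, 24.6 and 25.6 in WT control and 21, 20.1 and 21.7 in WT stress mice. In KO mice it was 25.7, 23 and 23 without and 21, 20.7 and 20.3 with stress. No stressed mouse overlapped the controls of its genotype. B2m fell by 0.25 ± 0.06 in WT (limma adjusted p = 0.0014) and by 0.21 ± 0.06 in KO CD8a cells (adjusted p = 0.0067). Under median centring it was at -0.05 and -0.03 and not called (adjusted p = 0.36 and 0.61), so the call depends on the scale. In CD4 cells it was -0.11 ± 0.08 and -0.15 ± 0.08 in WT and KO mice (adjusted p = 0.28 and 0.14).

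The ratio of heavy to light chain within a mouse does not depend on that scale. H2-D1 to B2m in CD4 cells was 0.607, 0.627 and 0.638 in WT control and 0.894, 0.878 and 0.884 in WT stress mice. In KO CD4 cells it was 0.671, 0.704 and 0.684 without and 0.844, 0.849 and 0.857 with stress. The stressed mice lay above the controls without overlap, and KO control mouse 1, high for each gene alone, had the lowest ratio of its group. In CD8a cells the ratio was 0.541, 0.551 and 0.517 against 0.745, 0.742 and 0.765 in WT, and 0.581, 0.573 and 0.571 against 0.695, 0.728 and 0.744 in KO mice. H2-K1 to B2m in CD4 cells was 0.869, 0.87 and 0.811 against 1.1, 1.11 and 1.06 in WT, and 0.91, 0.955 and 0.961 against 1.09, 1.16 and 1.12 in KO mice. The ratios were chosen after the values were seen and are given without a test; a ratio shows unequal change and not which gene changed.

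**Figure D4:**
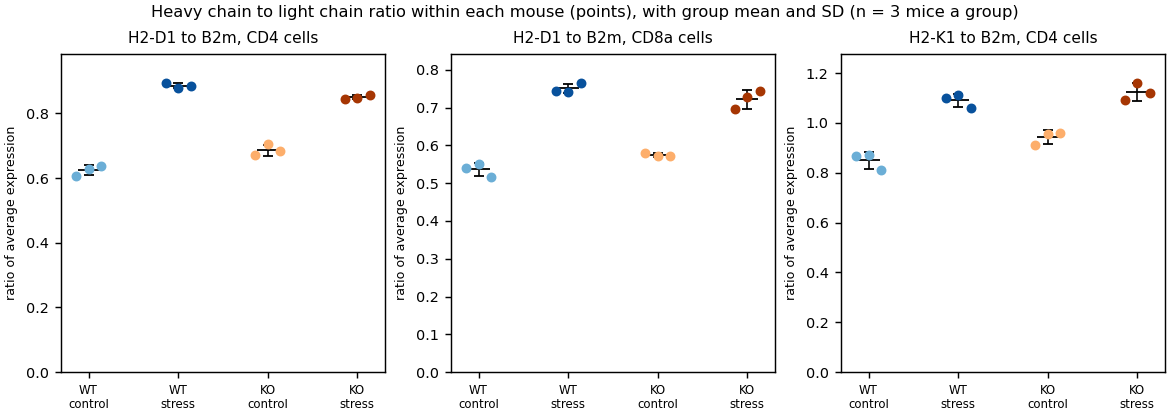
Ratio of a class I heavy chain gene to B2m within each mouse (points), with the mean and SD of 3 mice a group: H2-D1 in CD4 cells, H2-D1 in CD8a cells and H2-K1 in CD4 cells. In CD4 cells the H2-D1 ratio is 0.607 to 0.704 in the 6 control mice and 0.844 to 0.894 in the 6 stressed mice.

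KO control mouse 1 had the highest value of its group in 44 of 50 members in CD4 cells (88%, against 52.7% of all genes) and in 33 of 41 in CD8a cells (80.5%, against 48.1%). In the other 3 groups the mouse numbered 1 was highest in 38% to 58% of members in CD4 and 41.5% to 65.9% in CD8a cells. Over all genes those shares were 38.2% to 41% and 37.4% to 41.6%. A member share above that of all genes was thus not confined to KO control mice: it was 65.9% against 41.6% in KO stress CD8a cells and 58% against 41% in WT control CD4 cells. In the same mouse 13 listed interferon response genes summed to 33.8 in CD4 cells, against 19.7 and 14.6 in the other KO control mice and 11.2 to 13.4 in WT control mice. In CD8a cells 9 such genes summed to 18.2, against 10.1 and 8.57, and 6.38 to 7.84. The part of this mouse in the KO comparisons is given by leaving it out: 16 members in place of 12 then rose in KO CD4 cells, 15 in place of 9 in KO CD8a cells, and H2-T24 was no longer called lower in KO CD4 cells. Without KO control mouse 3 or KO stress mouse 1 the KO CD4 count was 4 and 5. The share of all genes called in these fits is not set beside the counts, so the shifts are not read as particular to members.

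The design also asks whether loss of S100a9 altered these genes or their stress change. Under limma with Benjamini-Hochberg adjustment 0 members were called between genotypes in either cell type, with or without stress, and 0 had a stress change that differed between genotypes. Of all genes 3.23% were called between unstressed and 0.1% between stressed genotypes in CD4 cells, 0.702% and 0.631% in CD8a cells, and 0% for the difference of stress changes in either cell type. At an unadjusted p below 0.05 there were 11, 2 and 2 members in CD4 cells and 3, 0 and 0 in CD8a cells for unstressed genotype, stressed genotype and the difference of stress changes. The members' shares were 22%, 4% and 4% in CD4 cells, against 19.8%, 9.97% and 9.47% of all genes, and 7.32%, 0% and 0% in CD8a cells, against 11.9%, 12.5% and 7.16%. The first is near the share of all genes and the others are below it.

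Of the 11 in unstressed CD4 cells 10 were higher in KO mice, as were 472 of the 595 genes at that p, which is no result about the members. Among the 10 were H2-T22 (0.31 ± 0.08, limma adjusted p = 0.055), Psmb9 (0.25 ± 0.08, adjusted p = 0.097), H2-K1 (0.18 ± 0.07, adjusted p = 0.17), Psmb8 (0.21 ± 0.10, adjusted p = 0.23) and H2-D1 (0.17 ± 0.08, adjusted p = 0.23). H2-T22 is named after its values were seen: it was 0.822, 0.912 and 0.86 in WT control and 1.12, 1 and 1.17 in KO control mice. When the fit was limited to genes listed for that comparison, Psmb9 was called. Those genes may have been listed for differing between these same mice, so that call adds no support for a genotype difference. For the stress change of H2-D1 in CD4 cells the KO minus WT difference was -0.24 ± 0.11 (adjusted p = 0.49). That p does not show that the genotypes responded alike.

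The members listed in both cell types were compared between CD8a and CD4 cells of the same mice. The cell types come in separate tables on a like scale, and the sources used here do not say whether they were normalised together. Of 40 members 23 were lower and 1 higher in CD8a cells, against 35.5% and 17.3% of 2166 genes, with a median of -0.13 against -0.06. Proteasome members were lower in 20 of 33 cases and higher in 0 by limma, with 0 higher at an unadjusted p below 0.05. Differences were small, none below -0.27: among them Psmb6 was at -0.25 ± 0.04 (limma adjusted p = 0.00048) and H2-D1 at -0.24 ± 0.03 (adjusted p = 1.4e-05). H2-Q7, a Qa-2 heavy chain, was higher in CD8a cells, at 0.21 ± 0.03 (adjusted p = 0.00019), with 7.41 to 9.02 in CD8a and 6.27 to 8.14 in CD4 cells.

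B2m stood at -0.00 ± 0.03 between the cell types, and Psmb8, Psmb5 and Psmb1 were at -0.04 ± 0.03, -0.05 ± 0.05 and -0.03 ± 0.03 (limma adjusted p between 0.21 and 0.97). The stress change itself differed between cell types in 0 of 40 members and in 0% of genes under limma, with 3 members (7.5%) at an unadjusted p below 0.05, against 6.6% of all genes. The lowest of these, H2-T22, had a stress change lower by 0.18 ± 0.05 in CD8a cells (adjusted p = 0.49).

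**Figure D5:**
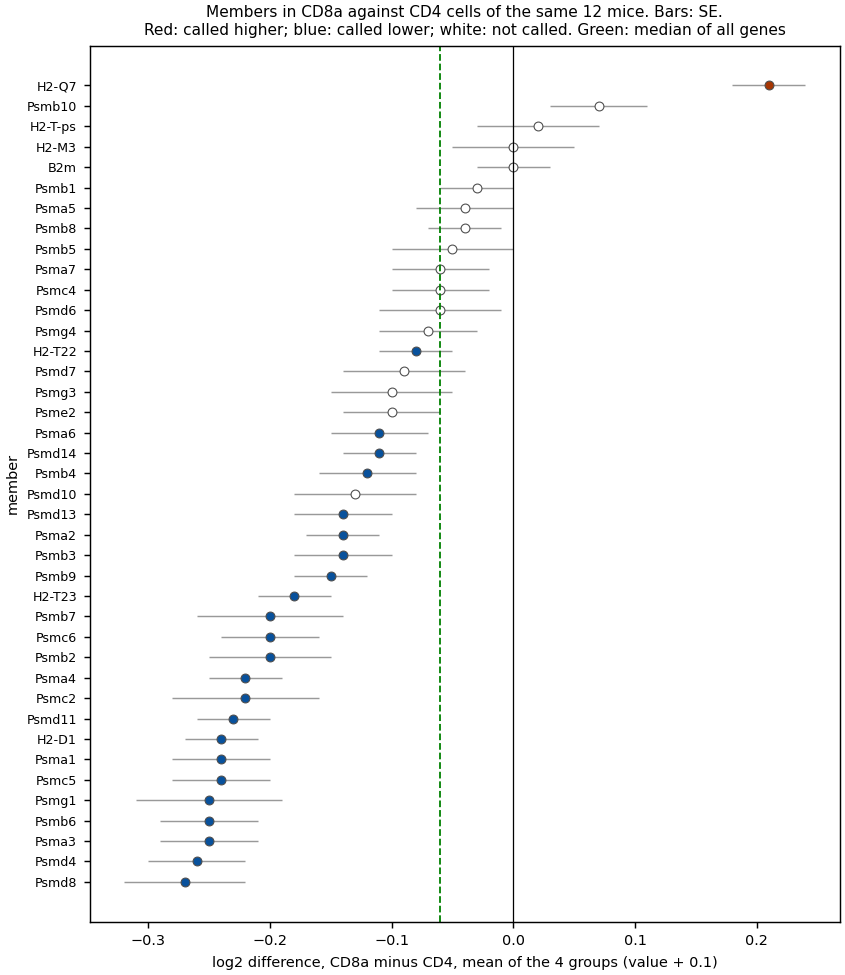
Difference between CD8a and CD4 cells of the same mice for the 40 shared members, as a mean over the 4 groups on the log2 scale with its standard error. All but 3 points lie at or left of 0 and H2-Q7 is the 1 member called higher, at 0.21.

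Genes that serve the same pathway without being members were taken from fixed lists. Of 25 genes of proteasome assembly, control and substrate delivery, 9 were listed in CD4 and 10 in CD8a cells. In WT CD4 cells 5 rose and 0 fell, in KO CD4 cells 3 and 0, and in CD8a cells 5 rose and 1 fell in each genotype, beside 22.9%, 12.7%, 18.8% and 13.2% of all genes called higher in WT CD4, KO CD4, WT CD8a and KO CD8a cells. The ubiquitin gene Ubb rose in each of the 4, by 0.81 ± 0.16 and 0.77 ± 0.16 in WT and KO CD4 cells and by 0.78 ± 0.15 and 0.79 ± 0.15 in CD8a cells. Sem1, a small cap subunit, rose by 0.48 ± 0.10 in WT CD4 and by 0.34 ± 0.08 and 0.25 ± 0.08 in WT and KO CD8a cells. Pomp, which matures the core, rose in WT mice, by 0.29 ± 0.12 in CD4 and 0.34 ± 0.10 in CD8a cells. Ddi2, a protease that activates the proteasome gene regulator NRF1, fell in CD8a cells, by -0.96 ± 0.14 in WT and -0.65 ± 0.14 in KO mice.

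Of 17 genes for class I folding, trimming and regulation, 4 were listed in CD4 and 3 in CD8a cells. By limma 0 rose, also at an unadjusted p below 0.05, while 1 and 2 fell in WT and KO CD4 cells and 2 in each genotype in CD8a cells. With so few genes listed these counts are not set apart from the 27.7% to 35.5% of all genes called lower in the 4 comparisons. The peptidase gene Tpp2 fell in CD8a cells, by 0.72 ± 0.10 in WT and 0.44 ± 0.10 in KO mice.

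Of 16 interferon response genes, 13 were listed in CD4 and 9 in CD8a cells. In WT mice 2 rose and 1 fell in each cell type: Bst2 rose by 0.72 ± 0.24 and 0.55 ± 0.18 and Ifi27l2a by 0.71 ± 0.24 and 0.74 ± 0.23 in CD4 and CD8a cells. In KO mice 0 rose by limma, also at an unadjusted p below 0.05, and 3 fell in CD4 and 2 in CD8a cells. Of all genes 22.9% rose and 27.7% fell in WT CD4 and 18.8% and 35.5% in WT CD8a cells. The KO shares were 12.7% and 29% in CD4 and 13.2% and 34.4% in CD8a cells. With so few genes listed these counts are not set apart from those shares. After adjustment 0 of these genes had a stress change that differed between genotypes in either cell type. In unstressed CD4 cells Ifi27l2a and Irf9 were higher in KO than in WT mice, by 0.97 ± 0.24 and 0.58 ± 0.13. Between unstressed genotypes 3.23% of all genes were called in CD4 cells. KO control mouse 1 is part of the KO control values, with sums of the listed interferon genes of 33.8 in CD4 and 18.2 in CD8a cells. The other KO control mice were at 19.7 and 14.6 in CD4 and 10.1 and 8.57 in CD8a cells.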

How the data were processed

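Spleen cells of 12 mice (3 in each of 4 groups) were sequenced with the 10x Genomics 3′ v2 kit, per the labels' protocols, and Cell Ranger 2.1.1 and build mm10 are named in the submitters' processing notes. The authors deposited 8 tables, 4 per cell type, of a signal that is average expression per mouse; cell filters, doublets, cell typing, the averaging and the rule that listed a gene are not given in the sources used here. Depth and cell numbers per mouse are unknown, so values carry no counting interval. Gene models are GENCODE M21 and promoters RefSeq.

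Genes listed in any table of a cell type were fitted as log2(value + 0.1) with limma 3.58.1 (R 4.3.3), 4 group means, trended empirical Bayes and Benjamini-Hochberg adjustment over all genes, threshold 0.05. CD8a was compared with CD4 on differences within a mouse. The code was tested on simulated data. Members, lists and tests were chosen with earlier results of these data known.

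Members fixed for naming were B2m, H2-D1, H2-K1, Nlrc5, Tap1, Tap2, Tapbp, Psmb5 to Psmb10, Psme1 and Psme2, then the 3 largest called rises and 3 largest falls without overlap per stress comparison, and up to 6 called between genotypes. Alternatives were other pseudocounts, a filter on the lowest 25%, 2 other scalings, no trend, array weights, a replicate block, fewer groups or genes, and each mouse left out. Some genes of the pathway lists are not reported here by name.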

Additional observations from a re-analysis of the deposited data

How the results depend on the processing

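Across the alternatives no call among the 65 stress calls of members changed sign. Median centring moved the counts most: members higher became 26 in KO CD4, 32 in WT CD8a and 28 in KO CD8a cells, and members lower 1 in WT CD4 and 0 in KO CD4, WT CD8a and KO CD8a cells. With the lowest 25% left out, or listed genes only, members lower were 1 in WT CD4 and 0 in KO CD4 cells, since H2-T24 (lowest 25%; KO comparison of listed genes) or Psmc1 (WT comparison of listed genes) was then not tested. With 2 groups only 0 were lower in KO CD4 cells. Array quality weights gave 14 members higher in KO CD8a cells; the cause was not tested. Listed genes only gave 1 member called between unstressed genotypes in CD4 cells, where 6 members were listed, and no value in CD8a cells. Genes listed for a comparison may have been chosen for differing in it, so that call adds no support. With 1 mouse left out, members higher ran from 4 to 16 in KO CD4 and from 6 to 15 in KO CD8a cells. Members lower ran from 1 to 2 in WT CD4 and from 0 to 1 in KO CD4 cells. Leaving out 1 WT mouse lost 8 to 11 of the 65 calls and gained 0 to 3. Leaving out 1 KO mouse lost 4 to 13 and gained 0 to 13. Apart from median centring, the share of all genes called under an alternative is not set beside its member count. Such counts are not read as particular to the members. Mouse numbers do not pair the mice (same-number correlations -0.2 to 0.23 in CD4 and -0.24 to 0.24 in CD8a cells), and with the mouse number as a replicate block 23 and 12 members rose in WT and KO CD4 cells and 17 and 11 in WT and KO CD8a cells. All 65 calls were kept under the block, both pseudocounts, array weights and the scaling without ribosomal and mitochondrial genes. Depth is unknown, and 3 mice a group limit what small differences can be seen.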
